A study of Mus musculus with 8 samples.

Results

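Peaks of P300 and YY1 were described in 7 windows of 1 Mb in which P300 peaks lie unusually close together, 1 on chromosome 5, 2 on chromosome 8 and 4 on chromosome 14 of the mouse genome (GRCm39). The windows span chr5:15000001-16000000, chr8:20000001-22000000, chr14:15000001-17000000 and chr14:18000001-20000000. They were chosen by the P300 peak lists themselves, from the 13 windows in which every P300 library holds at least 10 peaks. These 13 are among 2396 windows of 1 Mb that hold a peak of any library. Peaks of the 8 libraries lying in the windows were joined wherever they had 1 bp or more in common, which gave 361 of the 23459 merged regions of the series, built from 872 of its 40673 peaks. No merged region crossed a window edge. The 2 Mb on either side of each block of windows, 13 Mb in all, held 161 regions and serve for comparison.

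All libraries came from the established mouse embryonic stem cell line E14TG2a, cultured in LIF plus 2 kinase inhibitors. CUT&RUN, in which an antibody tethers a nuclease that releases the DNA around its target, was done on isolated nuclei with antibodies to P300 or YY1. Each antibody was used in wild-type cells (WT) and in cells with the deletion in Alkbh5 that the labels call del-cIDR, written ΔcIDR here, with 2 libraries per antibody and genotype. Alkbh5 encodes an RNA demethylase. In the series title IDR means intrinsically disordered region, and what the c means is not explained. The labels do not give the number of ΔcIDR clones or say that replicates were separate cultures, so the p-values speak only of the spread among these libraries, and that spread may be technical.

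P300, encoded by Ep300, is a histone acetyltransferase that transcription factors recruit to chromatin. Its binding is widely used to find active enhancers in embryonic stem cells, where enhancers can stand in clusters. YY1 is a zinc-finger protein that binds its own DNA motif, is common at promoters, and also takes part in contacts between enhancers and promoters. CUT&RUN peaks mark where the antibody's target was enriched, which need not be direct contact with DNA in the case of P300. Genes and sequences under these regions are not given, because the annotation at hand is on another genome build. Repeated or duplicated sequence in the windows, and how uniquely reads could be placed there, were not assessed either.

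The lists held 1466 and 2487 P300 peaks in WT, 1338 and 1304 P300 peaks in ΔcIDR, 3527 and 5842 YY1 peaks in WT, and 9178 and 15531 YY1 peaks in ΔcIDR. The depth behind a list is unknown, since the lists carry no read totals. Absence from a list means only that no peak passed the authors' threshold there. No control library was analysed here.

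P300 crowded the windows in every library. The WT libraries held 148 and 163 P300 peaks there and the ΔcIDR libraries 167 and 179, or 21.1, 23.3, 23.9 and 25.6 peaks per Mb. In the 2 Mb flanks the same libraries held 2.46, 3.62, 1.92 and 2.08 per Mb. The windows were thus 6.44 to 12.4 times as dense as their flanks, a description of how they were chosen and no test.

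Density was uneven among the windows. The first megabase on chromosome 8 was the densest, with 50 and 51 P300 peaks in WT and 54 and 55 in ΔcIDR, and the second held 28 and 31 in WT and 33 and 33 in ΔcIDR. The window from 15 to 16 Mb on chromosome 14 held 17 to 25 P300 peaks per library, and the one next to it 15 to 19. Nearest to the threshold lay chromosome 14 from 18 to 19 Mb, with 12 to 18, from 19 to 20 Mb, with 13 to 15, and the chromosome 5 window, with 13 to 19. Just outside it lay the megabase before the chromosome 8 windows, with 9 and 14 P300 peaks in WT and 8 and 12 in ΔcIDR. The gap megabase on chromosome 14, from 17 to 18 Mb, held 9 and 9 in WT and 5 and 6 in ΔcIDR. The crowding therefore did not stop sharply at the chosen threshold there, whereas the megabase after the chromosome 8 windows held at most 2 P300 peaks per library, and that after the chromosome 5 window held 0 in each list.

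**Figure D1:**
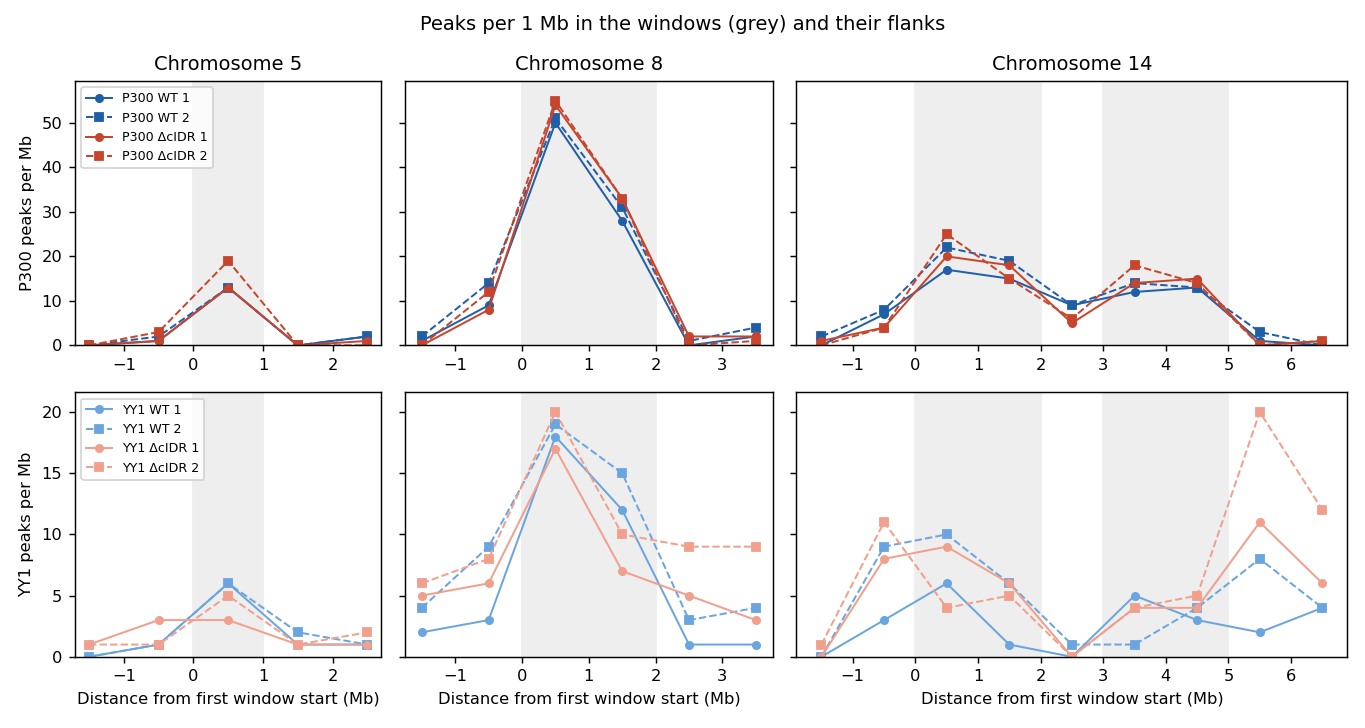
Peaks per 1 Mb (vertical axes, P300 above and YY1 below, each with its own scale) along chromosomes 5, 8 and 14, against distance from the start of the first window in Mb; grey marks the windows, each line is 1 library, and line style marks the replicate. P300 reaches 50 to 55 peaks per Mb in the first chromosome 8 window, where YY1 reaches 17 to 20, while YY1 also rises to between 2 and 20 in the flank from 20 to 21 Mb of chromosome 14.

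YY1, whose lists did not enter the choice of windows, was also denser inside them. YY1 lists of WT held 51 and 61 peaks in the windows and those of ΔcIDR 50 and 53, or 7.29, 8.71, 7.14 and 7.57 peaks per Mb. In the flanks YY1 density was 1.46 and 3.54 per Mb in WT and 3.85 and 6.23 in ΔcIDR. All 4 YY1 libraries had the higher density in the windows, by 4.99, 2.46, 1.86 and 1.22 times, a mean of 2.29 times (log2 1.198 ± 0.86 SD, n = 4, exact two-sided sign-flip permutation p = 0.125). That p is the smallest that 4 libraries allow, so the test could not pass 0.05. The chromosome 8 windows held 30 and 34 of the YY1 peaks in WT and 24 and 30 in ΔcIDR. The first block of chromosome 14 held 7 and 16 in WT and 15 and 9 in ΔcIDR, and the second 8 and 5, and 8 and 9. In the second ΔcIDR library the flank megabase from 20 to 21 Mb of chromosome 14 held 20, more than either block. The density ratio was not computed without chromosome 8.

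The YY1 excess over the flanks was larger in WT than in ΔcIDR libraries. The ratios of 4.99 and 2.46 in WT lay above those of 1.86 and 1.22 in ΔcIDR, a change in the ratio of 0.429 times (log2 -1.22, exact two-sided permutation p = 0.333, the smallest that 2 against 2 allows). In the same order the YY1 lists held 3527, 5842, 9178 and 15531 peaks, so the ratio fell as lists grew, within each genotype too. The ratio was not computed with lists of equal length, so genotype and list length cannot be told apart in it. In the lists as deposited, the flanks held more YY1 peaks in ΔcIDR, while the numbers in the windows overlapped between genotypes. With lists of equal length, or with −log10 q of at least 5, the YY1 numbers in the windows did not overlap and were lower in ΔcIDR. The megabase from 20 to 21 Mb of chromosome 14, which follows the last window, shows it most: it held 2 and 8 YY1 peaks in WT and 11 and 20 in ΔcIDR, against 1 and 3 P300 peaks in WT and 0 and 0 in ΔcIDR.

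Among the windows, YY1 was most crowded where P300 was. The first chromosome 8 window held 18 and 19 YY1 peaks in WT and 17 and 20 in ΔcIDR, and the second held 12 and 15 in WT and 7 and 10 in ΔcIDR. The other 5 windows held between 1 and 10 YY1 peaks per library. The chromosome 14 megabase from 17 to 18 Mb, which lies between 2 windows and kept 5 to 9 P300 peaks per library, held 0 or 1 YY1 peak. There the WT libraries had 9 P300 peaks each, 1 short of the threshold, and the ΔcIDR libraries 5 and 6.

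The members were of 3 kinds. P300 without YY1 made up 250 of the 361 regions (69.3%), YY1 without P300 46 (12.7%), and both antibodies 65 (18.01%). Regions with both were the widest, with a median of 339 bp against 159 bp for P300 alone and 226 bp for YY1 alone; a merged region grows with the number of peaks in it. All members together spanned 120 to 894 bp each and covered 80510 bp, 1.15% of the windows' length. The calls in the windows were thus many short separate peaks. Because the lists hold narrow peak calls, broad domains of signal could not be assessed.

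Read from the side of YY1, overlap was frequent: 65 of the 111 YY1 members (58.6%) also held a P300 peak, where 7.68% of all YY1 regions of the series did. In the flanks 18 of 116 YY1 regions (15.5%) did. Read from the side of P300, overlap was less frequent than in the series. Of 315 P300 members, 65 (20.6%) also held a YY1 peak, against 35.2% of all P300 regions. In the flanks 18 of 63 P300 regions (28.6%) did. Both shares depend on how densely the other antibody's peaks lie, which is what the windows were chosen for in the case of P300, so they are given as a description.

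Where both proteins were called, their summits lay close. In the 37 members held by at least 2 lists of each antibody, the median P300 summit lay a median of 28.5 bp from the median YY1 summit, and 27 of the 37 (73.0%) lay within 50 bp. Elsewhere in the genome the same distance was 48 bp over 338 regions, with 52.4% within 50 bp. YY1 peaks that shared a member with P300 also ranked higher in their own list. Their median percentile of −log10 q, where 100 marks the strongest peak of a list, was 64.2 and 73.7 in WT and 73.5 and 77.1 in ΔcIDR, against 53.2 and 37.5 in WT and 22.2 and 42.4 in ΔcIDR for YY1 peaks without P300. P300 peaks with YY1 ranked at 78.7, 90.8, 81.6 and 80.4 and those without at 79.5, 78.7, 76.3 and 74.8, in the order of WT and then ΔcIDR libraries. For P300 the order of the values was the opposite in 1 of the 4 libraries, the first WT library.

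Spacing inside the windows was short for P300 and nearly equal in all 4 libraries. Neighbouring P300 summits lay a median of 6.39 and 7.1 kb apart in WT and 6.66 and 6.26 kb in ΔcIDR. In the 2 Mb flanks the same lists had medians of 24.1 and 27.7 kb in WT and 31.95 and 10.3 kb in ΔcIDR. Over the whole genome the medians were 612.3 and 381.0 kb in WT and 590.5 and 486.2 kb in ΔcIDR. Between 39.3% and 42.3% of neighbouring P300 pairs in the windows lay within 5 kb, and the closest pair of a list was 307 to 366 bp apart. ΔcIDR and WT overlapped in their spacing, with a mean ratio of 0.958 (log2 -0.06). No test is given, because crowding of P300 chose the windows.

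YY1 peaks in the windows stood farther apart, at medians of 24.4 and 21.2 kb in WT and 31.1 and 30.0 kb in ΔcIDR. Within 5 kb lay 25.5% and 26.3% of the neighbouring YY1 pairs in WT and 15.2% and 16.3% in ΔcIDR. The genotypes did not overlap in either measure, and the YY1 difference in spacing was not tested. They did overlap in the upper quartile, at 126.6 and 106.9 kb in WT and 114.9 and 69.6 kb in ΔcIDR. Pairs within 1 kb also overlapped, at 4.3% and 5.3% in WT and 4.3% and 8.2% in ΔcIDR. Genome-wide YY1 medians were shorter in ΔcIDR, at 267.6 and 156.3 kb in WT and 99.9 and 54.9 kb in ΔcIDR, with the longer ΔcIDR lists. In the flanks they were 349.6 and 71.75 kb in WT and 94.3 and 48.9 kb in ΔcIDR, which overlap.

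**Figure D2:**
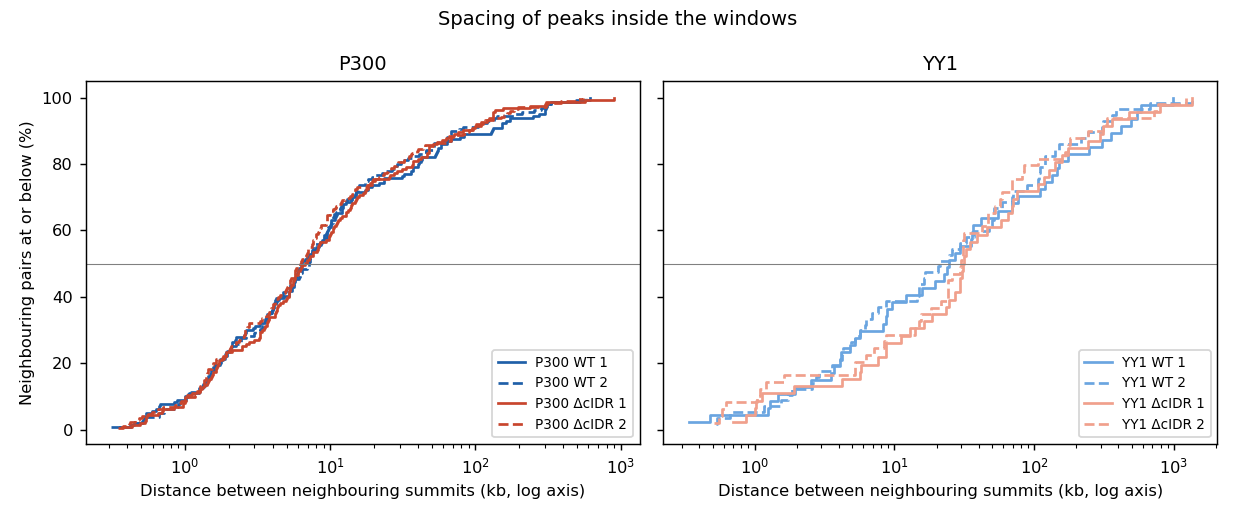
Cumulative share of neighbouring summit pairs in the windows (vertical axis, percent) against the distance between the summits (horizontal log axis, kb), with 1 line per library and P300 and YY1 in separate panels. The 4 P300 lines run together, with medians of 6.26 to 7.1 kb, while at 5 kb the YY1 lines stand at 25.5% and 26.3% in WT and at 15.2% and 16.3% in ΔcIDR.

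The merged members themselves lay a median of 3.73 kb apart (quartiles 1.36 and 11.2 kb over 357 neighbouring pairs). Of these pairs 74 (20.7%) were within 1 kb and 204 (57.1%) within 5 kb, and 12 were over 100 kb apart. The closest were chr8:20045827-20046258 and chr8:20046270-20046739, with 11 bp between them. Each of the pair was held by all 4 P300 lists and by 3 of the 4 YY1 lists. The farthest neighbours were chr5:15111453-15111653, a YY1 region, and chr5:15656337-15656498, a P300 region, with 544683 bp between them.

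Members formed stretches rather than an even comb. Chained across gaps of up to 50 kb, a distance chosen after the data were examined, they fell into 29 stretches. The 12 stretches with at least 10 members held 306 of the 361 (84.8%) in 1971 kb, 28.2% of the window length. On chromosome 8, 3 stretches held 144 of 162 members (88.9%) in 607.7 kb. The first, chr8:20000087-20182121, held 63 members, with 32 and 31 P300 peaks in WT and 35 and 38 in ΔcIDR, and begins at the window's edge. The second, chr8:20484572-20730136, held 32 members, and its P300 peak numbers overlapped between genotypes at 18 and 20 in WT and 19 and 17 in ΔcIDR. The third, chr8:21034136-21214247, held 49 members, with 24 and 26 P300 peaks in WT and 25 and 29 in ΔcIDR.

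The other chromosomes showed the same grouping at lower density. On chromosome 5 the 45 members stood in 3 stretches of 14 to 16, on either side of the longest gap. On chromosome 14, chr14:16324536-16631232 held 32 members, chr14:18268593-18451340 held 25 and chr14:15403268-15595785 held 24. A few stretches held more YY1 than P300 regions. In chr14:19799780-19835990, 5 of the 6 members were YY1 regions and 1 was a P300 region. On chromosome 8, chr8:21432459-21508976 held 8 members, of which 6 held YY1 and 3 held P300. The stretch chr8:21560721-21561187 was 1 YY1 region.

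Distances between members were counted in classes of 100 bp, without an expected number for comparison. Distances over 400 kb were not counted. On chromosome 8, 1636 pairs of regions present in at least 2 P300 lists lay 500 bp to 400 kb apart. The fullest 100 bp class of distances held 5 of them (0.306%), and 3 classes shared that number. The fullest class held 1 pair on chromosome 5 and 2 pairs in each block of chromosome 14.

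P300 members recurred between libraries more often than P300 regions in general. Of the 315 P300 members, 59 (18.7%) were in all 4 P300 lists, against 6.43% in the whole series, and 149 (47.3%) were in 1 list only, against 73.6%. Members in exactly 2 lists numbered 55 and in 3 lists 52. Since the windows were chosen as crowded in every library, these shares are a description. In the flanks the share in all 4 lists was 15.9% of 63 P300 regions, nearer to the windows than to the series.

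The share of members that recurred differed between the blocks. On chromosome 8, 38 of 140 P300 members (27.1%) were in all 4 lists. On chromosome 14, 10 of 77 (12.99%) were in the first pair of windows and 10 of 58 (17.2%) in the second. On chromosome 5, 1 of 40 was (2.5%), and 29 (72.5%) were in 1 list, close to the share of 73.6% in the series. The chromosome 5 window was thus crowded in each library, but mostly at different positions. Its 1 recurring P300 member, chr5:15848397-15849057, had fold enrichments of 6.23 and 5.71 in WT and 4.78 and 8.05 in ΔcIDR. Fold is the authors' value for reads at the summit over a local background, and is used only to describe a peak or to rank it within its list.

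**Figure D3:**
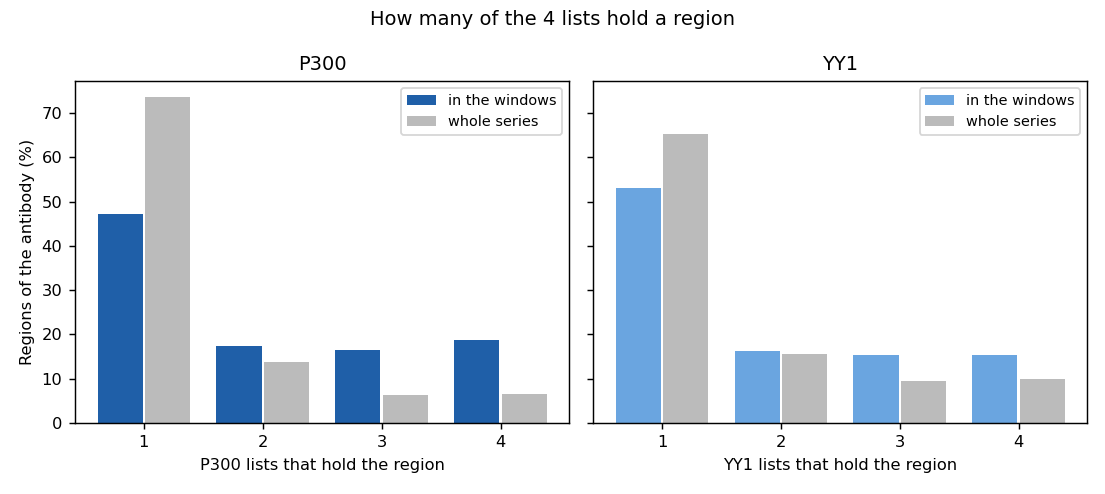
Share of regions of an antibody (vertical axis, percent) by the number of its 4 lists that hold them (horizontal axis), for members in the windows (blue) and the whole series (grey). P300 members are in all 4 lists in 18.7% of cases against 6.43% of the series, and YY1 members in 15.3% against 9.8%.

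Any pair of P300 libraries shared about as many members between genotypes as within one. In the windows 53.0% to 68.0% of a library's P300 regions were in another library's list between genotypes and 53.4% to 60.8% within a genotype. Outside the windows the same shares were 20.1% to 43.3% and 24.0% to 42.5%. P300 summits in the 59 members of all 4 lists also lay at nearly the same base. The range of the 4 summits had a median of 24 bp, and was within 50 bp in 38 members (64.4%), against a median of 33 bp in the 229 such regions elsewhere.

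P300 peaks in the windows were strong for their lists but not the strongest. Their median percentile was 79.0 and 83.2 in WT and 79.0 and 76.3 in ΔcIDR, against 71.6 and 69.6, and 72.7 and 65.7, in the flanks. P300 peaks in members of all 4 lists had medians of 85.5 and 90.0 in WT and 83.0 and 83.6 in ΔcIDR, and peaks in members of 1 list 68.0 and 69.6 in WT and 61.9 and 65.0 in ΔcIDR. The highest-ranking P300 peak of a list in the windows stood at rank 64 to 72 of the list. Median fold enrichment of P300 peaks in the windows was 7.30 and 6.77 in WT and 7.29 and 6.97 in ΔcIDR, with a maximum of 19.8 to 24.6.

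YY1 peaks in the windows ranked at medians of 62.1 and 68.8 in WT and 59.4 and 62.0 in ΔcIDR, against 41.6 and 62.0 in WT and 53.8 and 56.2 in ΔcIDR in the flanks. All 4 YY1 libraries had the higher median inside, by 9.70 ± 7.22 percentile points (SD, n = 4, exact two-sided sign-flip permutation p = 0.125, the smallest possible). The difference was 2.80 points with flanks of 1 Mb and 1.61 points among peaks with −log10 q of at least 5 (exact permutation p = 0.375 and 0.5). It was thus not stable in size.

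Members found in all 8 lists numbered 9 of 361 (2.49%), against 0.341% of the series and 2 of 161 flank regions (1.24%). Of the 9 members, 7 lay on chromosome 8. The strongest was chr8:20051631-20051909, with P300 fold enrichments of 20.01 and 24.6 in WT and 19.8 and 21.1 in ΔcIDR, and YY1 fold enrichments of 14.9 and 18.4 in WT and 16.1 and 17.1 in ΔcIDR. Its P300 percentile was 94.7 to 97.5 and its YY1 percentile 97.5 to 98.8. The next, chr8:20119472-20119978, had P300 folds of 11.1 and 14.1 in WT and 11.8 and 8.88 in ΔcIDR, with YY1 folds of 15.1, 16.3, 14.7 and 16.4 in the same order. At chr8:20697849-20698558 the YY1 percentile was 98.8 to 99.5, while the P300 percentile was 79.2 to 91.9, so this 710 bp region ranked higher for YY1 than for P300 in every list.

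Another 29 members were in all 4 P300 lists and in no YY1 list, 17 of them on chromosome 8. Over all members in the 4 P300 lists, 30 of 59 (50.8%) held YY1 in at least 1 list, against 63.5% of the 288 such regions of the series. The leading member without YY1, chr14:19339065-19339283, had P300 folds of 15.8 and 14.7 in WT and 9.59 and 14.4 in ΔcIDR. At chr14:19350748-19350949 the P300 folds were 11.8 and 9.59 in WT and 13.3 and 12.9 in ΔcIDR, and at chr8:20087399-20087576 they were 11.8 and 10.2 in WT and 12.8 and 11.9 in ΔcIDR. These 3 ranked between the 86.3 and 96.1 percentile of every P300 list.

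In the second chromosome 8 window, the leading P300 member, chr8:21130482-21130764, was held by all 4 P300 lists and 3 YY1 lists. It had P300 folds of 13.5 and 12.8 in WT and 11.8 and 10.9 in ΔcIDR, and P300 percentiles of 93.0 to 96.5. On chromosome 14, chr14:15204076-15204851, the first window's leading member, had P300 folds of 8.98 and 10.7 in WT and 7.67 and 8.69 in ΔcIDR. The leading member from 16 to 17 Mb, chr14:16482298-16482535, had P300 folds of 7.32 and 8.46 in WT and 6.82 and 6.47 in ΔcIDR, and that from 18 to 19 Mb, chr14:18389632-18389910, 7.81 and 8.21 in WT and 8.70 and 7.09 in ΔcIDR. Folds come from separate lists without a common scale, so no difference between genotypes is read from them.

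YY1 members recurred in all 4 YY1 lists in 17 of 111 cases (15.3%), against 9.8% in the series, and 59 (53.2%) were in 1 list, against 65.2%. Only 4 of the 17 lacked P300 in every list. The strongest of these 4, chr8:20555652-20556181, had YY1 folds of 4.57 and 5.43 in WT and 6.02 and 7.30 in ΔcIDR. At chr14:19911030-19911341 the YY1 folds were 6.23 and 4.31 in WT and 5.21 and 5.85 in ΔcIDR, and at chr8:21097785-21098097 they were 7.08 and 4.41 in WT and 7.57 and 5.59 in ΔcIDR. All 3 lay below the YY1 folds of 12.7 to 18.4 at the 3 named members of all 8 lists.

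P300 peak numbers by genotype are given without a test, because the windows were chosen by these numbers. The rule asked for at least 10 P300 peaks in every library, so a megabase with fewer in any P300 library, of either genotype, was left outside. Chromosome 14 from 17 to 18 Mb fell short in both genotypes, with 9 and 9 in WT and 5 and 6 in ΔcIDR. In the windows ΔcIDR libraries held 173 ± 8.49 (SD, n = 2) and WT libraries 155.5 ± 10.6 (SD, n = 2), a ratio of 1.11 with groups that did not overlap (log2 0.15). Outside the windows P300 peaks numbered 1318 and 2324 in WT and 1171 and 1125 in ΔcIDR, a ratio of 0.656, which makes the ratio in the windows 1.70 times that outside (log2 0.76). This comparison was chosen after the data were examined.

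As a share of the list, the windows took 10.1% of P300 peaks in the first WT library (95% Wilson interval 8.66% to 11.7%) and 6.55% in the second (5.65% to 7.60%). They took 12.5% in the first ΔcIDR library (10.8% to 14.4%) and 13.7% in the second (12.0% to 15.7%). The ratio of the shares was 1.61, with no test for the same reason. The size rests in part on the second WT library, which has the longest P300 list: without it the log2 ratio of the shares was 0.37, and with lists cut to 1304 peaks each it was 0.23.

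**Figure D4:**
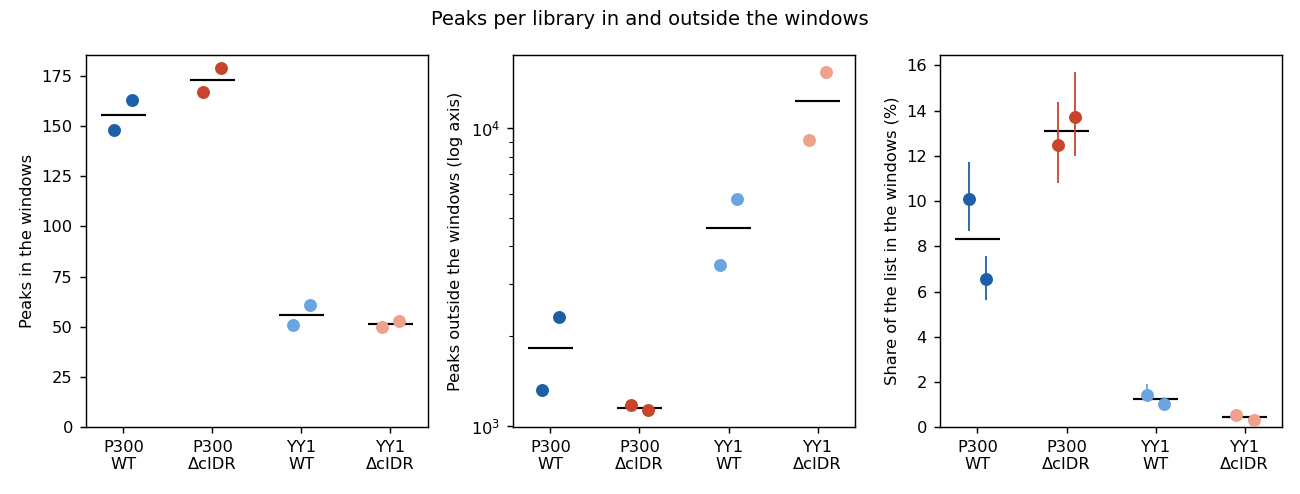
Peaks in the windows, peaks outside them (log axis) and the windows' share of each list in percent, for the 8 libraries as points by antibody and genotype; lines are means of 2 libraries and bars on the share are 95% Wilson intervals. P300 numbers in the windows are 148 and 163 in WT and 167 and 179 in ΔcIDR, while P300 numbers outside are lower in ΔcIDR and YY1 numbers outside are higher.

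YY1 numbers in the windows overlapped between genotypes. ΔcIDR libraries held 51.5 ± 2.12 (SD, n = 2) and WT libraries 56 ± 7.07 (SD, n = 2), a ratio of 0.923 (log2 -0.12, exact two-sided permutation p = 0.667, smallest possible 0.333). Outside the windows YY1 peaks numbered 3476 and 5781 in WT and 9128 and 15478 in ΔcIDR, a ratio of 2.65 (exact permutation p = 0.333), and the ratio in the windows was 0.348 times that outside (exact permutation p = 0.333). The windows' share of the YY1 lists was accordingly 1.45% and 1.04% in WT and 0.545% and 0.341% in ΔcIDR, a ratio of 0.351 (exact permutation p = 0.333). With YY1 lists of equal length, 3527 peaks each, the windows held 51 and 46 YY1 peaks in WT and 24 and 19 in ΔcIDR (log2 -1.18, exact permutation p = 0.333), so the near equality of the numbers holds for the lists as deposited. At −log10 q of at least 5 the numbers were 28 and 37 in WT and 24 and 25 in ΔcIDR. Without the second WT library the sign of the YY1 ratio changed (log2 0.01).

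The P300 ratio of ΔcIDR to WT in the windows was 1.21 times the YY1 ratio (log2 0.27). It was log2 1.42 with lists of equal length and 0.56 among peaks with −log10 q of at least 5. These values are also without a test, since P300 numbers chose the windows and YY1 numbers did not. Over the 7 YY1 comparisons the lowest Benjamini-Hochberg adjusted p of the exact permutation tests was 0.389, so none passed 0.05.

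Window by window, both P300 counts of ΔcIDR lay above both of WT in 3 of the 7 windows, against 2.89% of the 1 Mb bins of the genome with a P300 peak. These were the 2 on chromosome 8 and chromosome 14 from 19 to 20 Mb. In 0 of the 7 did both WT counts lie above both of ΔcIDR, against 14.1% of the bins. For YY1, both WT counts lay above both of ΔcIDR in 2 of the 7 windows, the chromosome 5 window and the second on chromosome 8, against 0.212% of the bins. In 0 of the 7 did both ΔcIDR counts lie above, against 53.8%. A bin with few peaks can hardly separate the libraries, so these shares compare crowded windows with mostly sparse bins for P300. The P300 counts are also those that chose the windows, and nothing is read from them.

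Single members called in 1 genotype only were few. For P300, 13 of 315 members (4.13%) were in both ΔcIDR lists and no WT list, against 1.38% of the series. The reverse held for 4 (1.27%), against 4.24%. In the flanks 2 of 63 P300 regions (3.2%) were ΔcIDR-only, close to the windows' share, and 7 (11.1%) were WT-only. The 13 ΔcIDR-only members were spread over all blocks, with 2 on chromosome 5, 3 on chromosome 8 and 8 on chromosome 14, and 5 of them held a YY1 peak. The nearest P300 peak called in WT lay a median of 4.48 kb away, between 251 bp and 86.3 kb, and within 5 kb for 7 of the 13. Since P300 peaks chose the windows, both counts are descriptions.

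The leading ΔcIDR-only P300 members lay on chromosome 14. The first, chr14:18434190-18434357, had P300 folds of 9.06 and 11.5 in ΔcIDR. At chr14:19384083-19384352 the P300 folds were 11.7 and 9.46, and this member also held a YY1 peak in the first WT library, with a fold of 8.17. At chr14:19437236-19437415 the P300 folds were 7.88 and 8.61. All 3 ranked between the 81.0 and 89.9 percentile of the ΔcIDR lists, well above their lower end. The leading WT-only P300 members ranked lower. They were chr14:16429578-16429744, with P300 folds of 6.76 and 6.21 in WT, chr8:21037602-21037730, with 6.02 and 5.79, and chr5:15885768-15885958, with 7.59 and 5.23.

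For YY1 the order was the opposite. In both WT lists and no ΔcIDR list were 6 of 111 YY1 members (5.41%), against 0.292% of the series. In both ΔcIDR lists and no WT list were 2 (1.80%), against 9.33%. In the flanks 0 of 116 YY1 regions were WT-only and 9 (7.76%) ΔcIDR-only. Of the 6 WT-only YY1 members, 4 lay on chromosome 8 and 5 held a P300 peak. The 3 leading ones, chr8:21152821-21153112, chr8:21060340-21060625 and chr8:21064513-21064881, were each in all 4 P300 lists. At the first of them YY1 had folds of 5.99 and 9.20 in WT, and P300 had folds of 7.25 and 11.0 in WT and 11.6 and 9.74 in ΔcIDR. At chr8:21060340-21060625 the YY1 folds were 4.71 and 5.77 in WT, beside P300 folds of 4.33 and 7.07 in WT and 4.62 and 5.13 in ΔcIDR. At these members YY1 was thus not called in ΔcIDR, while P300 was called in both genotypes.

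Both ΔcIDR-only YY1 members were on chromosome 8. At chr8:21058798-21059065 the YY1 folds were 5.24 and 7.38 in ΔcIDR, and 3 P300 lists held the region. This member lies 1.27 kb before chr8:21060340-21060625, a WT-only YY1 member, so YY1 calls of opposite genotype stood side by side within 1 stretch. At chr8:20587065-20587305 the YY1 folds were 4.60 and 3.91 in ΔcIDR, and no P300 list held it.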

How the data were processed

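The windows, the regions and the lists described here were chosen with earlier results of these data known. The authors deposited 1 MACS2 narrowPeak list per library, not pooled. Per the submitters' processing notes, fastp, BWA, SAMtools, Picard, MACS2 and featureCounts were used with GRCm39, without roles or versions. Whether a control library was used is not given in the sources. The deposited score equals 10 times −log10 q without decimals. The authors' fold is the ratio of reads at the summit to a local background, and the −log10 p and −log10 q values are the deposited ones. Lists were not scaled to each other, so the score, fold and −log10 q were used only within a list, mainly as a percentile of −log10 q. The deposited summit position gave the distances.

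The analysis took the 19 autosomes, X and Y, and used Python 3.11.15, numpy 2.4.6, pandas 2.3.3 and scipy 1.17.1. Positions are counted from 1. A peak belonged to a window when it lay wholly inside it, and a merged region counted for each list with a peak in it. Peak numbers, shares and median spacing were compared on the log2 scale. P300 numbers chose the windows, so tests are given for YY1 only, although tests of P300 had been planned: two-sided exact permutation tests over the 6 assignments of 4 libraries, and for YY1 in windows against flanks over 16 sign flips of 4 libraries. Scripts were tested on simulated data. Regions named are the leading 3 of each class by mean percentile of −log10 q, the leading P300 member of each window, and the closest and farthest neighbours. Stretches, the windows-minus-outside comparisons, the genotype comparison of YY1 density ratios, the counts of separated windows and the omission of chromosome 8 were chosen after the data were examined. Alternatives were a −log10 q of at least 5, peaks with at least 1 bp in a window, lists of equal length, and other flanks. Further alternatives were other merging, omission of chromosome 14 or 8, omission of each library, and the replicate number as a block. Wilson intervals cover counting error only.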

Additional observations from a re-analysis of the deposited data

Results flagged for a closer look

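P300 peak numbers moved in opposite directions inside and outside the windows. Inside, both ΔcIDR libraries (167 and 179 peaks) lay above both WT libraries (148 and 163), and outside, both ΔcIDR libraries (1171 and 1125) lay below both WT libraries (1318 and 2324). The difference between the log2 ratios was 0.7633. It is given without a test and the difference was not tested on independent values, because the windows were chosen for at least 10 P300 peaks in every library. That rule leaves outside any megabase low in a library of either genotype, and its effect on the difference was not tested. Without the second WT library, which has the longest P300 list (2487 peaks), the log2 ratio of the windows' share of the list fell from 0.69 to 0.37 and kept its sign.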

How the results depend on the processing

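With 2 libraries per genotype no test could pass 0.05, and peak lists without read totals cannot tell a weaker signal from a shallower library. Of the 80 values of the compared quantities under alternatives, 76 kept their direction and 4 reversed. Among the 80, values from peaks with at least 1 bp in a window could not differ, since no region crossed a window edge. Nor could those with the replicate block, which alters only the p. The YY1 number in the windows reversed to log2 0.0384 without the chromosome 8 windows and to 0.0135 without the second WT library. P300 spacing reversed to 0.107 without the chromosome 8 windows and to 0.0141 without the second P300 WT library. Without 1 library each, the log2 ranges were 0.09 to 0.22 for P300 numbers, 0.37 to 1.00 for P300 shares, -0.24 to 0.01 for YY1 numbers, -1.85 to -1.17 for YY1 shares, -0.14 to 0.01 for P300 spacing, 0.14 to 0.40 for the antibody difference and 0.82 to 1.504 for YY1 density, and 6.09 to 11.1 points for the YY1 percentile. Flanks of 1 or 5 Mb gave YY1 densities of log2 0.93 and 1.70. With the replicate block, the log2 ratio of YY1 numbers was by construction still -0.12 (exact permutation p = 0.5) and that of P300 numbers 0.15. The numbers did not pair the libraries, whose same-numbered deviations over 2396 bins correlated at 0.00804 for P300 and 0.0734 for YY1.

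Among class counts, a −log10 q of at least 5 left 9 YY1 members in every list, 1 ΔcIDR-only and 3 WT-only YY1 members, 20 YY1 members in 1 list and 41 with both antibodies. Lists of equal length left 8 YY1 members in every list, 1 ΔcIDR-only YY1 member, 38 YY1 members in 1 list and 5 members in all 8 lists. Without chromosome 14, which removes its members by construction, 39 P300 members were in every list, 5 ΔcIDR-only, 2 WT-only and 78 in 1 list, with 33 YY1 members in 1 list and 41 with both antibodies. Without 1 library, when a single library defines one side, ΔcIDR-only P300 members numbered 27 to 53, WT-only P300 members 12 to 44, ΔcIDR-only YY1 members 4 to 17 and WT-only YY1 members 9 to 23. The P300 counts in every list then ranged from 67 to 74 and in 1 list from 134 to 143, the YY1 counts from 19 to 24 and 50 to 56, those with both antibodies from 55 to 63 and in all 8 lists from 9 to 12.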
